A study of Drosophila melanogaster with 6 samples.

Results

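The 34 genes described here had little RNA in eggs of mothers that overexpressed wild-type MEK and a clear level in eggs of mothers that overexpressed MEK F53S. They were chosen from the 13943 genes of the tables by their TPM, a transcript level corrected for length and scaled to the same total in every library. The mean TPM was under 2 in the 3 wild-type MEK libraries and 4 or more in the 3 MEK F53S libraries, and the lowest MEK F53S value was at least 2 times the highest wild-type MEK value. In all, 51 genes or 0.366% met these limits, and 17 of them were left out by name, as histone, heat shock and Sdic genes or as known members of other groups, among them Pvr, br, aos and Kr-h1. The 34 genes were thus chosen by the same contrast that separates the groups, and their differences between the groups are given as a description with no test.

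The libraries were made from unfertilized eggs of Drosophila melanogaster. The first group came from MTD>MEK_F53S females and the second from MTD>MEK females, with 3 libraries each. Both groups carried the MTD-GAL4 driver, which acts in the maternal germline, both had their construct at the same genomic position, and the females of both were mated to sterile males. About 20 eggs were pooled from collections of 0 to 30 min, so a library is an average over eggs, and the age of the mothers was not stated in the labels. Because each construct came in its own fly line, the construct and the genetic background of its line cannot be told apart. Nothing in the labels ties a replicate to separate mothers, so p-values measure the spread between these samples, part of which may be technical.

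MEK is the kinase that phosphorylates and activates ERK, and F53S is an activating change. In flies, ERK signalling is known for relieving repression by Capicua and for acting through ETS factors such as Pointed. An egg receives its RNA from the nurse cells of the ovary and carries it until transcription starts in the embryo, so a transcript found in an unfertilized egg is usually of maternal origin.

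Total estimated counts ranged from 37224814 to 48485330 in MEK F53S libraries and from 37342085 to 48756311 in wild-type MEK libraries. Log counts of tested genes, scaled for depth, correlated at 0.987 to 0.992 between MEK F53S libraries, at 0.985 to 0.994 between wild-type MEK libraries and at 0.961 to 0.974 between libraries of different groups. Dsor1, the fly MEK gene, had 3306, 2635 and 2398 TPM with MEK F53S and 3177, 2329 and 2784 TPM with wild-type MEK, and did not pass the test (log2 fold change -0.04 ± 0.14 SE). Both groups overexpress MEK, so the Dsor1 level does not check which construct a library held. The labels do not say from which species the MEK construct came or whether its reads were counted on Dsor1, so these levels may be those of the gene alone or of the gene and the construct.

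Together, the 34 genes summed to 263, 314 and 311 TPM in the MEK F53S libraries, against 27.5, 26.5 and 25.3 TPM in the wild-type MEK libraries. Their mean levels ran between 4.15 and 28.6 TPM with MEK F53S, with a median of 7.23 TPM, and between 0 and 1.77 TPM with wild-type MEK, with a median of 0.872 TPM. Low is a better word than absent for most of them in wild-type MEK eggs, because 23 of the 34 were above 0 in each of the 3 wild-type MEK libraries, 7 had counts in some, and 4 had 0 counts in every one. In edgeR's quasi-likelihood test over all genes, 32 of the 34 had enough counts to be tested, and 32 were called higher with MEK F53S at an adjusted p under 0.05, where 12.3% of the 7539 tested genes were called higher. Nothing is read from that count, since the limits that chose the genes used these values. Their log2 fold changes ran between 1.45 and 10.31 with a median of 3.11, beside a median of 0.05 over all tested genes. The libraries are bulk samples, so fewer cells or eggs with a transcript and less RNA in each cannot be told apart.

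**Figure D1:**
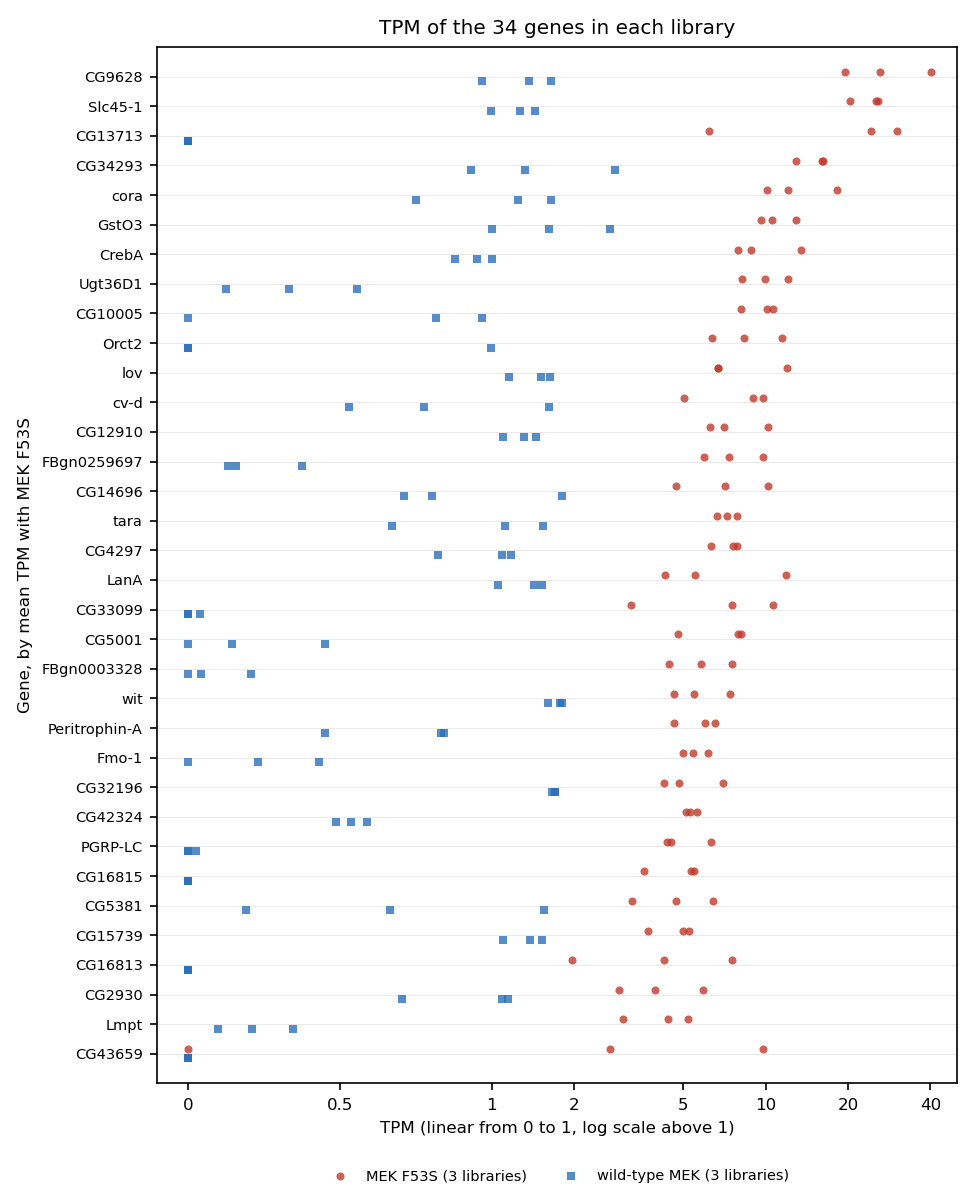
TPM of each of the 34 genes in the 3 MEK F53S libraries (red circles) and the 3 wild-type MEK libraries (blue squares), ordered by mean MEK F53S level; the axis is linear from 0 to 1 and logarithmic above 1. The red and blue points do not overlap for any gene but CG43659, which was at 0 in 1 MEK F53S library, as the limits require.

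**Figure D2:**
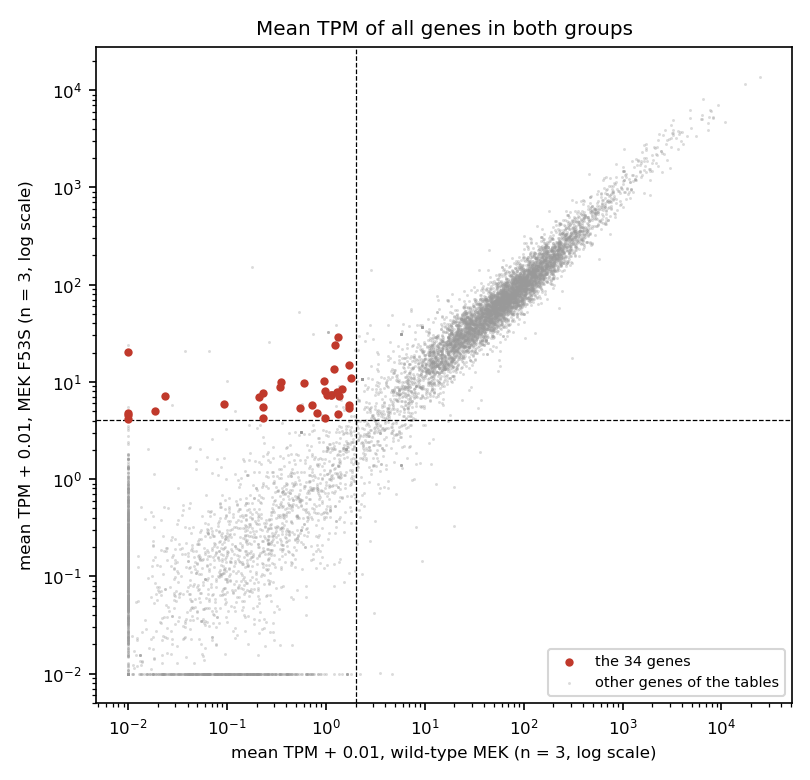
Mean TPM + 0.01 of every gene of the tables with MEK F53S (vertical axis) and with wild-type MEK (horizontal axis), both logarithmic, with the 34 genes in red; dashed lines mark the limits of 4 and 2 TPM. The 34 genes lie in the upper left field and at or below 28.6 TPM on the vertical axis, a range in which many other genes have like levels in both groups.

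Membrane transporters and enzymes of small-molecule metabolism included some of the highest of the 34 genes. Slc45-1, a member of the SLC45 family of sugar transporters, had 20.4, 25.7 and 25.3 TPM with MEK F53S and 1.27, 1.43 and 0.997 TPM with wild-type MEK, a log2 fold change of 4.19 ± 0.25 (SE). All 3 MEK F53S libraries lay close together, with a coefficient of variation of 12.4%. Orct2, of the organic cation transporter family, had 6.37, 11.5 and 8.37 TPM with MEK F53S and 0, 0.998 and 0 TPM with wild-type MEK. All of its 28 wild-type MEK counts thus came from replicate 2, and its log2 fold change of 4.59 had an SE of 1.09. Its call was lost under DESeq2 and without MEK F53S replicate 2. Its neighbour Orct, which starts 532 bases away on the same strand, averaged 0.406 TPM with MEK F53S and was at 0 TPM in every wild-type MEK library, too low to be tested.

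Ugt36D1, a UDP-glycosyltransferase, an enzyme class that attaches sugars to small lipophilic molecules, had 8.20, 9.93 and 12.1 TPM with MEK F53S and 0.127, 0.332 and 0.558 TPM with wild-type MEK (log2 fold change 4.71 ± 0.48 SE). Ugt36E1 starts 54 bases downstream of it on the same strand. That gene averaged 60.2 ± 4.05 TPM with MEK F53S and 68.0 ± 2.85 TPM with wild-type MEK (SD, n = 3 each) and did not pass edgeR's test (adjusted p = 0.094). The difference at Ugt36D1 was therefore not seen at the adjacent family member. Among the 8 other UDP-glycosyltransferases tested, of 35 genes in the family list, 2 were higher, 1 was lower and 5 were not called. Of all tested genes, 12.3% were higher and 12.9% lower. Ugt35A1 averaged 46.0 TPM with MEK F53S and 16.5 TPM with wild-type MEK (log2 fold change 1.39 ± 0.17 SE, adjusted p = 0.00079, edgeR). Ugt49B1 had 2.15, 4.66 and 3.03 TPM with MEK F53S and 0, 0.266 and 0 TPM with wild-type MEK (adjusted p = 0.0088, edgeR). Ugt50B3 averaged 3.48 TPM with MEK F53S and 5.76 TPM with wild-type MEK (adjusted p = 0.0201, edgeR), a call that was lost without MEK F53S replicate 1 or 3 or without wild-type MEK replicate 3.

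GstO3, a glutathione S-transferase of the omega class, had 10.6, 12.9 and 9.60 TPM with MEK F53S and 2.70, 1.002 and 1.62 TPM with wild-type MEK (log2 fold change 2.58 ± 0.47 SE). It had the highest wild-type MEK mean of the 34 genes, 1.77 TPM. Its relatives GstO1 and GstO2 were more abundant in both groups. GstO1 averaged 36.3 TPM with MEK F53S and 28.7 TPM with wild-type MEK (adjusted p = 0.279, edgeR), and GstO2 averaged 159 TPM with MEK F53S and 115.4 TPM with wild-type MEK (adjusted p = 0.0615, edgeR), so neither passed the test. GstO2 did pass without MEK F53S replicate 2 and under limma on log TPM. Fmo-1, a flavin-containing monooxygenase, had 5.43, 6.15 and 5.003 TPM with MEK F53S and 0.232, 0 and 0.432 TPM with wild-type MEK (log2 fold change 4.61 ± 0.82 SE). Its paralog Fmo-2 averaged 14.6 TPM with MEK F53S and 15.2 TPM with wild-type MEK (adjusted p = 0.549, edgeR). In the list of 38 detoxification genes, which holds none of the 34, 22 were tested. Of these 22 genes, 6 were higher and 3 were lower, beside 12.3% and 12.9% of all tested genes. Their median log2 fold change was 0.46.

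Genes of cell junctions and the extracellular matrix formed another set. cora encodes Coracle, a FERM-domain protein of septate junctions, the barrier junctions of insect epithelia. It had 10.1, 18.3 and 12.0 TPM with MEK F53S and 1.64, 0.752 and 1.24 TPM with wild-type MEK (log2 fold change 3.40 ± 0.30 SE). Of 14 other septate junction genes tested, 4 were higher, 3 were lower and 7 were not called. The shares over all tested genes were 12.3% higher and 12.9% lower. Nrg, the adhesion molecule Neuroglian, averaged 43.2 TPM with MEK F53S and 18.1 TPM with wild-type MEK (log2 fold change 0.93 ± 0.15 SE, adjusted p = 0.00222, edgeR). nrv2, a subunit of the sodium pump, had 0.655, 0.975 and 0.894 TPM with MEK F53S and 0 counts with wild-type MEK (adjusted p = 0.00332, edgeR). Nrx-IV averaged 23.2 TPM with MEK F53S and 12.6 TPM with wild-type MEK, and vari averaged 20.3 TPM with MEK F53S and 12.4 TPM with wild-type MEK. They had adjusted p-values of 0.0448 and 0.0437 in edgeR's test, and lost the call when any of 5 libraries (Nrx-IV) or any of 6 (vari) was left out. The polarity genes scrib and l(2)gl were lower with MEK F53S, with log2 fold changes of -0.64 ± 0.12 and -0.96 ± 0.11 (SE; adjusted p = 0.00593 and 0.00042, edgeR). Another polarity gene, dlg1, was lower at -0.46 ± 0.12 (SE; adjusted p = 0.0199, edgeR), a call lost without MEK F53S replicate 1 or 3 or wild-type MEK replicate 2 or 3. Septate junction genes as a list thus moved in both directions, with a median log2 fold change of -0.15.

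LanA encodes the alpha chain of laminin, the trimeric protein of basement membranes. It had 5.50, 11.8 and 4.27 TPM with MEK F53S and 1.42, 1.53 and 1.05 TPM with wild-type MEK (log2 fold change 2.39 ± 0.33 SE). Replicate 2 with MEK F53S held more than the other replicates, and the coefficient of variation of 56.4% was among the largest of the 34 genes. LanB1, the beta chain, had 7.45, 13.7 and 10.4 TPM with MEK F53S and 5.22, 2.64 and 4.56 TPM with wild-type MEK and was called higher (log2 fold change 1.22 ± 0.27 SE, adjusted p = 0.00974, edgeR), in all leave-one-out fits as well. LanB2, the gamma chain, was at 0 in all 6 libraries, and wb, the other alpha chain, reached 0.0198 TPM in 1 wild-type MEK library and was at 0 in the rest. Of the laminin receptors, mys averaged 41.3 TPM with MEK F53S and 44.3 TPM with wild-type MEK and was called lower (adjusted p = 0.0397, edgeR), but not without MEK F53S replicate 1 or 3 or wild-type MEK replicate 2 or 3, nor under 6 of 9 other fits, upper-quartile scaling among them. Dg, another laminin receptor, was not called.

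Peritrophin-A, a chitin-binding protein, had 4.63, 6.53 and 5.99 TPM with MEK F53S and 0.843, 0.452 and 0.831 TPM with wild-type MEK (log2 fold change 3.04 ± 0.53 SE). The chitin-binding gene obst-A lies next to it and was at 0 with MEK F53S and at 0.0122 TPM on average with wild-type MEK. cv-d, a lipoprotein related to vitellogenin that acts in crossvein formation in the wing, had 5.01, 9.81 and 9.02 TPM with MEK F53S and 1.62, 0.776 and 0.530 TPM with wild-type MEK (log2 fold change 3.03 ± 0.42 SE). In both genes replicate 1 was the lowest MEK F53S library, and it lay above every wild-type MEK library, as the limits require.

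Receptors were represented by PGRP-LC and wit. PGRP-LC, the membrane receptor that senses peptidoglycan at the head of the Imd immune pathway, had 4.52, 4.35 and 6.32 TPM with MEK F53S and 0.0257, 0 and 0 TPM with wild-type MEK. It held 741 counts in the MEK F53S libraries together and 1 count in the wild-type MEK libraries together (log2 fold change 8.82 ± 0.73 SE). Among the genes of the set with a matched name, it was the only one in any of the 16 fixed gene lists, that of immune response genes. Of 30 genes in that list, 22 were at 0 in every library and 2 others were tested and 0 called. Those genes, Rel and PGRP-SD, had unadjusted p-values of 0.608 and 0.662 in edgeR. In a list of 14 peptidoglycan receptors and Imd pathway genes, 9 genes other than PGRP-LC were tested. Of these 9 genes, 1 was higher, 1 was lower and 7 were not called, beside 12.3% higher and 12.9% lower among all tested genes. PGRP-LE, the intracellular receptor, had 25.5, 21.7 and 23.1 TPM with MEK F53S and 13.7, 7.17 and 6.22 TPM with wild-type MEK (log2 fold change 1.28 ± 0.29 SE, adjusted p = 0.0113, edgeR). IKKbeta, a kinase of the pathway, averaged 26.9 TPM with MEK F53S and 41.3 TPM with wild-type MEK (log2 fold change -0.78 ± 0.13 SE, adjusted p = 0.00337, edgeR). Both calls held in every alternative fit. Rel, the NF-kappaB factor at the end of the pathway, averaged 25.1 TPM with MEK F53S and 23.1 TPM with wild-type MEK (adjusted p = 0.735, edgeR). PGRP-LA and PGRP-LF, the annotated neighbours of PGRP-LC on either side, averaged 0.0460 and 0.0986 TPM with MEK F53S and were at 0 with wild-type MEK, so the level at PGRP-LC did not extend over this gene cluster.

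wit, a type II receptor for BMP signals, had 4.61, 7.44 and 5.46 TPM with MEK F53S and 1.60, 1.80 and 1.77 TPM with wild-type MEK (log2 fold change 1.67 ± 0.22 SE). It had among the smallest fold changes of the 34 genes, and 9.49% of its exon bases overlap dib or CG32259 on the other strand, both of which averaged under 0.25 TPM in each group. The type I receptors tkv, sax and babo and the transducer Mad were each above 27 TPM in both groups and did not pass the test. put, the other type II receptor, averaged 171 TPM with MEK F53S and 193 TPM with wild-type MEK (log2 fold change -0.35 ± 0.10 SE, adjusted p = 0.0289, edgeR). That call was lost without MEK F53S replicate 1 or 3 or wild-type MEK replicate 2 or 3, and under 5 of 9 other fits, upper-quartile scaling among them.

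Regulators of transcription came next. CrebA, a bZIP factor known for raising genes of the secretory pathway, had 7.95, 13.5 and 8.82 TPM with MEK F53S and 0.879, 0.950 and 1.0004 TPM with wild-type MEK (log2 fold change 3.19 ± 0.24 SE). The SD of its wild-type MEK libraries was 0.061 TPM (n = 3), while MEK F53S replicate 2 exceeded the other replicates. Among 5 related bZIP genes tested, 1 was higher and 2 were lower, beside 12.3% and 12.9% of all tested genes. Atf3 averaged 1.48 TPM with MEK F53S and 0.202 TPM with wild-type MEK (log2 fold change 2.63 ± 0.30 SE, adjusted p = 0.0005, edgeR). crc averaged 238 TPM with MEK F53S and 302 TPM with wild-type MEK (adjusted p = 0.0126, edgeR), and Atf6 averaged 57.0 TPM with MEK F53S and 58.1 TPM with wild-type MEK (adjusted p = 0.0487, edgeR). The call of crc was lost without MEK F53S replicate 3 or wild-type MEK replicate 2 or 3, and that of Atf6 without these or MEK F53S replicate 1, and also under 7 of 9 other fits, among them other scaling factors (RLE and upper-quartile). CrebB and Xbp1 were not called.

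tara, the trithorax-group related gene taranis, had 7.24, 6.64 and 7.89 TPM with MEK F53S and 1.12, 1.54 and 0.670 TPM with wild-type MEK (log2 fold change 2.50 ± 0.32 SE). lov, a BTB-domain factor, had 6.70, 11.9 and 6.72 TPM with MEK F53S and 1.63, 1.51 and 1.15 TPM with wild-type MEK (log2 fold change 2.32 ± 0.31 SE). The MEK F53S libraries spread less in tara, with a coefficient of variation of 8.62%, than in lov, with 35.8%. Lmpt, which encodes a LIM-domain protein, had 3.01, 4.39 and 5.21 TPM with MEK F53S and 0.101, 0.210 and 0.347 TPM with wild-type MEK (log2 fold change 4.12 ± 0.47 SE).

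**Figure D3:**
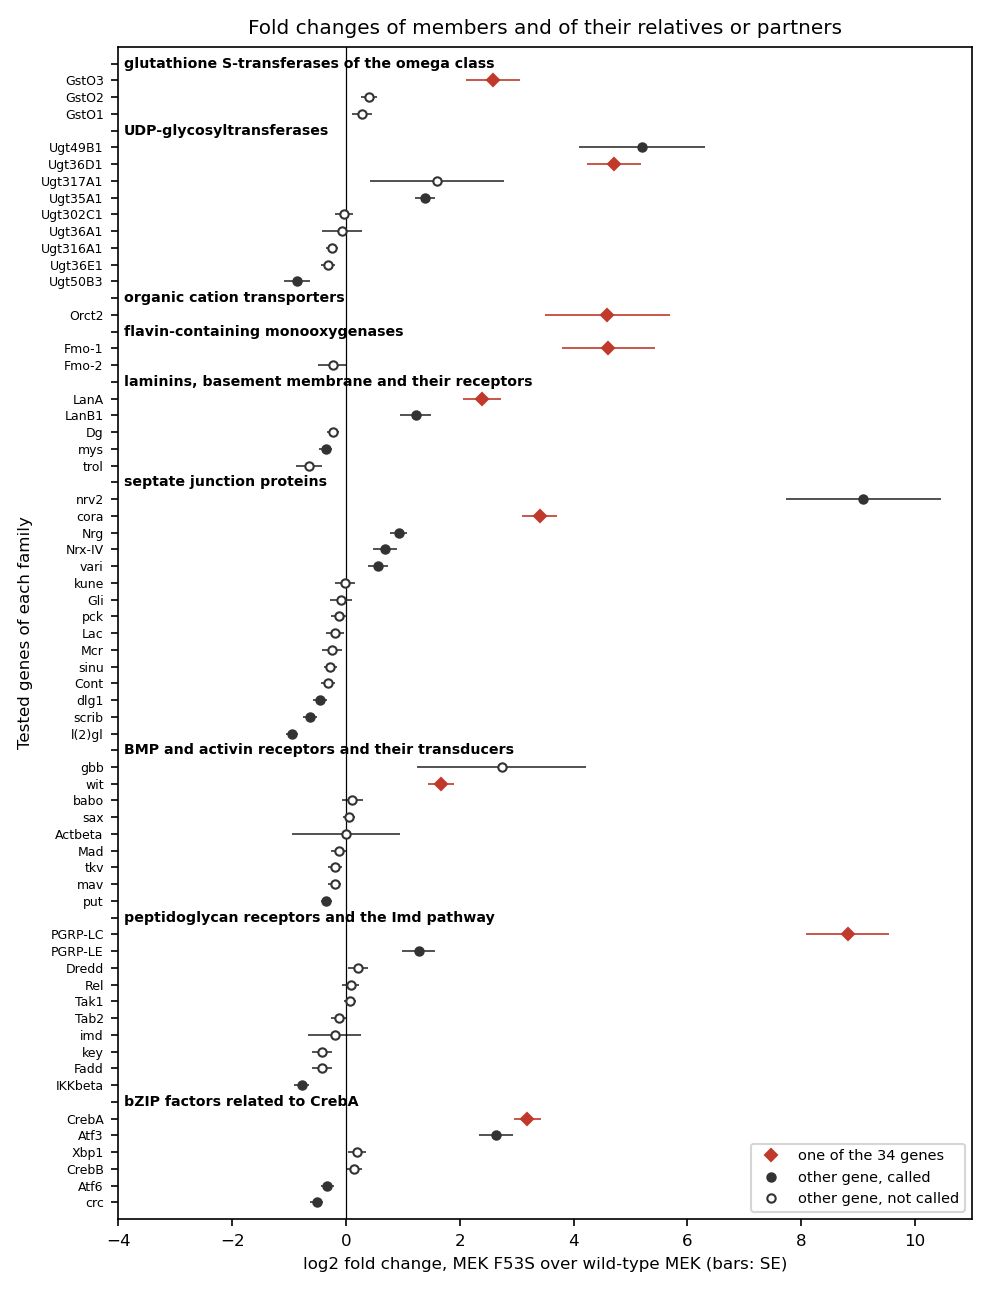
Log2 fold change, MEK F53S against wild-type MEK, and its SE for tested genes of 9 families or pathways; red diamonds are genes among the 34, filled black circles other genes called at an adjusted p under 0.05, and open circles genes not called. In the pathway of PGRP-LC, the relatives lie between -0.78 and 1.28 while PGRP-LC lies at 8.82; in the septate junction set black circles lie on both sides of 0.

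Of the genes known here by a CG number, CG9628 had the highest mean of all 34. It had 19.5, 40.3 and 26.1 TPM with MEK F53S and 1.37, 1.64 and 0.968 TPM with wild-type MEK (log2 fold change 3.41 ± 0.29 SE). Its lowest MEK F53S library was 11.9 times its highest wild-type MEK library, where the limits require at least 2 times. CG34293 had 16.1, 12.9 and 16.2 TPM with MEK F53S and 1.32, 2.81 and 0.931 TPM with wild-type MEK, and 31.9% of its exon bases overlap ppk31 on the other strand, which averaged 0.251 TPM with MEK F53S and 0.167 TPM with wild-type MEK. CG10005 had 10.1, 10.6 and 8.15 TPM with MEK F53S and 0.967, 0.815 and 0 TPM with wild-type MEK. Next to CG10005, 1377 bases away on the same strand, CG18547 averaged 48.9 TPM with MEK F53S and 4.68 TPM with wild-type MEK (log2 fold change 3.48 ± 0.48 SE, adjusted p = 0.00111, edgeR), outside the limits only because its wild-type MEK mean was above 2 TPM. CG33099 had 3.21, 7.53 and 10.6 TPM with MEK F53S and 0, 0.0414 and 0 TPM with wild-type MEK, which came to 687 counts with MEK F53S and 1 count with wild-type MEK. CG33099 and PGRP-LC were the pair of genes with a single count in one wild-type MEK library.

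CG12910 had 10.2, 7.03 and 6.28 TPM with MEK F53S and 1.10, 1.32 and 1.44 TPM with wild-type MEK. It shares 3.79% of its exon bases with CAP on the same strand, so its counts could be split by the quantification. CAP averaged 21.6 TPM with MEK F53S and 9.31 TPM with wild-type MEK and was itself called higher (log2 fold change 0.91 ± 0.16 SE, adjusted p = 0.00344, edgeR). CG14696 had 4.71, 7.09 and 10.2 TPM with MEK F53S and 0.803, 0.710 and 1.81 TPM with wild-type MEK. CG12910 was highest and CG14696 lowest in MEK F53S replicate 1. CG4297 had 6.33, 7.60 and 7.84 TPM with MEK F53S and 1.18, 0.824 and 1.09 TPM with wild-type MEK. CG5001 had 4.78, 7.96 and 8.12 TPM with MEK F53S and 0.451, 0 and 0.146 TPM with wild-type MEK. CG42324 varied least of all 34 genes between MEK F53S libraries, with 5.59, 5.31 and 5.10 TPM, a coefficient of variation of 4.60%, against 0.589, 0.536 and 0.487 TPM with wild-type MEK (log2 fold change 2.41 ± 0.19 SE). FBgn0259697 had 5.94, 7.33 and 9.80 TPM with MEK F53S and 0.157, 0.133 and 0.375 TPM with wild-type MEK. FBgn0003328 had 4.44, 7.51 and 5.82 TPM with MEK F53S and 0, 0.207 and 0.0443 TPM with wild-type MEK. These IDs were matched to no gene name here, so they could not be placed in the gene lists, which were matched by name.

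Genes near the limits show how sharp the selection is. Just inside the wild-type MEK limit, below GstO3, were wit and CG32196, which averaged 1.72 and 1.69 TPM with wild-type MEK. Just outside it were aru, with 21.0 TPM with MEK F53S and 2.09 TPM with wild-type MEK, Cyp6a13, with 29.4 TPM with MEK F53S and 2.13 TPM with wild-type MEK, and CG15891, with 6.39 TPM with MEK F53S and 2.16 TPM with wild-type MEK. Just inside the MEK F53S limit were CG43659 at 4.15 TPM, Lmpt at 4.20 TPM and CG2930 at 4.26 TPM, and just outside it were CG18622 at 3.79 TPM, blow at 3.58 TPM and Tret1-1 at 3.56 TPM. At the limit on separation, the lowest MEK F53S library was 2.10 times the highest wild-type MEK library in CG5381, 2.45 times in CG15739 and 2.50 times in CG32196. It was 1.72 times in Galphaf, 1.55 times in CG11275 and 1.48 times in ACXD, which the rule left outside.

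CG32196 had 4.83, 4.27 and 6.99 TPM with MEK F53S and 1.69, 1.71 and 1.66 TPM with wild-type MEK. Its log2 fold change of 1.45 ± 0.43 (SE) was the smallest among the tested genes of the set, and its call was lost when any library but MEK F53S replicate 2 was left out. CG5381 had 3.24, 6.40 and 4.71 TPM with MEK F53S and 0.191, 0.663 and 1.54 TPM with wild-type MEK, and here wild-type MEK replicate 3 came closest to the MEK F53S libraries. CG15739 had 4.99, 3.73 and 5.24 TPM with MEK F53S and 1.38, 1.10 and 1.52 TPM with wild-type MEK. CG2930 had 2.90, 5.92 and 3.95 TPM with MEK F53S and 1.14, 0.705 and 1.09 TPM with wild-type MEK. CG2930 shares 4.85% of its exon bases with yin on the other strand, a gene that averaged 483 TPM with MEK F53S and 542 TPM with wild-type MEK and was not called (adjusted p = 0.588, edgeR).

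CG13713, CG16815, CG16813 and CG43659 stood at 0 counts in every wild-type MEK library. A count of 0 allows up to 0.0615 to 0.0803 CPM (counts over the total of the library, as TPM but with no length) in these libraries, with a floor of 3 counts per library, which covers counting error only. Against that floor CG13713 was at least 54.8-fold higher with MEK F53S, CG43659 at least 10.3-fold, CG16813 at least 7.93-fold and CG16815 at least 7.72-fold. Single libraries moved the first 3 of these bounds. Without MEK F53S replicate 3, which held 85 of its 104 counts, CG43659 was at least 3.48-fold higher, and it was at least 15.4-fold higher without replicate 2. CG16813 was at least 5.13-fold higher without replicate 1, and CG13713 at least 40.8-fold without replicate 1 and 74.4-fold without replicate 2. CG13713 had 30.2, 6.23 and 24.2 TPM in MEK F53S replicates 1, 2 and 3. CG16813 had 7.56, 1.97 and 4.26 TPM, and CG16815 had 5.48, 3.60 and 5.35 TPM. CG43659 had 2.69, 0 and 9.75 TPM, and without MEK F53S replicate 3 it no longer met the limits. All 4 genes were lowest in replicate 2, where they summed to 11.8 TPM, against 46.0 TPM in replicate 1 and 43.6 TPM in replicate 3. CG16813 and CG43659 had too few counts to be tested, and the call of CG16815, which rests on 74 counts, was lost without MEK F53S replicate 1 or 3 or wild-type MEK replicate 2 or 3.

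Of the other 30 genes, 2 were highest in MEK F53S replicate 1, 16 in replicate 2 and 12 in replicate 3, while 19 were lowest in replicate 1, 5 in replicate 2 and 6 in replicate 3. Among the 1470 other genes of the tables with a mean MEK F53S level in the same range, 23.1% were highest in replicate 1, 51.1% in replicate 2 and 25.9% in replicate 3, so a high replicate 2 was common at these levels. How many of those genes were lowest in each replicate was not counted, so the counts of lowest values have no background. The median coefficient of variation between MEK F53S libraries was 26.4% in the 34 genes, with a range of 4.60% to 121%, and 19.3% in those other genes. From the list of early zygotic genes, those transcribed first in the embryo, 13 had 0 counts with wild-type MEK and some with MEK F53S. They summed to 5.19, 2.30 and 15.2 TPM in MEK F53S replicates 1, 2 and 3, and replicate 2 alone was lowest in 5 of the 13 and replicate 1 alone in 2. The remaining 6 were tied at 0 in replicate 2 and another replicate, which these low levels cannot order. None of the 34 genes that have a matched name is in that list. Its 10 tested genes included 6 higher and 1 lower, where 12.3% and 12.9% of all tested genes were. With MEK F53S replicate 1 or 3 or wild-type MEK replicate 2 or 3 left out, 2 or 3 were higher. What part of the replicate pattern of the 4 genes goes with early zygotic RNA was not tested.

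**Figure D4:**
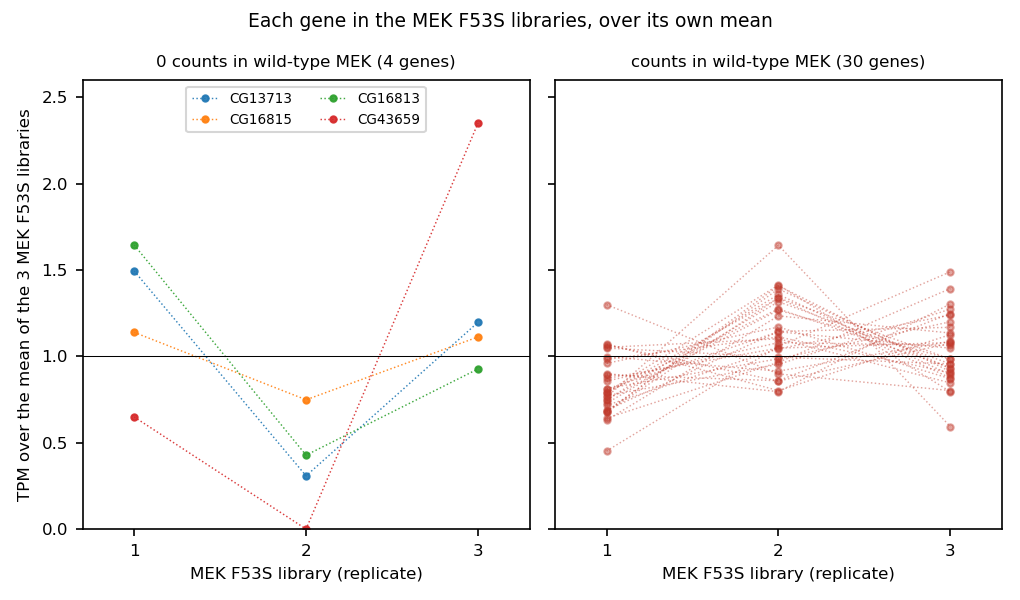
TPM of each gene in each MEK F53S library over its own mean of the 3 libraries, for the 4 genes with 0 wild-type MEK counts (left) and the other 30 (right); dotted lines join the values of a gene and the replicates have no order. The 4 genes on the left are all lowest in replicate 2, whereas 5 of the 30 on the right are. The share of other genes lowest in replicate 2 was not counted.

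In the dm6 assembly the 32 genes with an annotated position lay on all large chromosome arms. There were 11 on 3L, 34.4% of the 32, where 19.6% of all annotated genes of the tables lie, 7 on 3R, 6 on 2L, 5 on 2R and 3 on X. CG16813 and CG16815 lay next to each other on 2L (13227529 to 13228521 and 13229832 to 13230549, both plus strand), 1311 bases apart. Slc45-1 (3L, 9203065 to 9208853) and PGRP-LC (3L, 9338810 to 9348336) were 130 kb apart, and the nearest other gene of the set was at least 372 kb away for every other one. The genes spanned a median of 4764 bases, against 2160 bases for all annotated genes and 2700 bases for those with a mean MEK F53S level of 4 TPM or more. CG13713, CG16815, CG43659 and Orct2 had a single exon in every transcript, as did 15.4% of all annotated genes and 8.86% of those at 4 TPM or more, so 3 of the 4 genes with 0 wild-type MEK counts had no intron.

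CG13713 (3L, 4697601 to 4698058, plus strand) lies inside RhoGEF64C on the same strand and shares no exon bases with it. RhoGEF64C averaged 0.794 TPM with MEK F53S and 3.50 TPM with wild-type MEK, and so went the other way (log2 fold change -2.18 ± 0.30 SE, adjusted p = 0.00122, edgeR). On the other side of CG13713, 2756 bases away, CG15876 averaged 1.60 TPM with MEK F53S and had 0 counts with wild-type MEK. It was called higher (adjusted p = 0.0209, edgeR), but not without MEK F53S replicate 1 or 2 or wild-type MEK replicate 2 or 3. Over all 62 genes that flank one of the 32, 35 were tested, and 11.4% of these were called higher and 11.4% lower, beside 12.3% and 12.9% of all tested genes. The shares among the neighbours were thus close to those among all tested genes. Of the genes that overlap one of the 32, 5 were tested, 1 was higher and 2 were lower. CG34293, wit and lov were the only ones with over 5% of their exon bases shared with another gene, and the counts of lov, 9.45% of whose exon bases overlap CG43106 on the same strand, could be split by the quantification, though CG43106 was at 0 in every library.

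Most markers of somatic tissues were at or near 0 in these eggs, and no marker list holds any of the 34 genes that have a matched name. Follicle cell and eggshell markers summed to 0.896 to 3.82 TPM with MEK F53S and 1.97 to 2.91 TPM with wild-type MEK, with 15 of 27, Cp36 and Vm26Aa among them, at 0 in every library. Of the 2 follicle markers tested, tsl was lower, at 0.0985 TPM with MEK F53S and 1.69 TPM with wild-type MEK (adjusted p = 0.0241, edgeR). That call was lost when any library but MEK F53S replicate 2 was left out, and with the replicate number as a block. Gut markers summed to at most 0.807 TPM with MEK F53S and 0.364 TPM with wild-type MEK, with 20 of 23 at 0. The muscle gene Mhc, the hemocyte genes Hml and NimC1 and the yolk gene Yp1 were at 0 in all 6 libraries. The sums of the neuron and glia list (26.3 to 33.8 TPM with MEK F53S and 26.0 to 29.8 TPM with wild-type MEK; 3 of 17 at 0), the muscle list (34.6 to 56.6 TPM with MEK F53S and 51.8 to 58.2 TPM with wild-type MEK; 8 of 17 at 0) and the hemocyte list (133 to 193 TPM with MEK F53S and 116 to 195 TPM with wild-type MEK; 6 of 15 at 0) overlapped between the groups, and each came mostly from 1 gene, Syx1A, Mef2 and crq in that order. Sums without overlap between the groups were also seen in the ERK-responsive and detoxification lists, higher with MEK F53S, and in the early zygotic list, lower with MEK F53S. The immune response sums were 31.9 to 38.6 TPM with MEK F53S and 25.4 to 27.5 TPM with wild-type MEK. They include PGRP-LC, which the limits chose, so nothing is read from their gap. Gaps were seen too for ecdysone and juvenile hormone response genes, higher with MEK F53S, and for imaginal and signalling genes, lower with MEK F53S. None was seen for the RAS, MEK and ERK cascade. Such gaps were thus not particular to tissue markers, of which 4 lists had sums that did not overlap. The ecdysone and juvenile hormone list, with 26 of 31 names matched, had 20 tested genes. Of these, 8 were higher and 0 lower, beside 12.3% and 12.9% of all tested genes, with a median log2 fold change of 0.80. The 8 included br and Kr-h1, left out by name, and gce and Hr3, with log2 fold changes of 2.21 and 1.88. Germline and egg markers summed to 10921 to 12089 TPM with MEK F53S and 12404 to 13391 TPM with wild-type MEK, with 0 of 19 at 0. Testis markers summed to 11.4 to 16.8 TPM with MEK F53S and 2.99 to 8.91 TPM with wild-type MEK, with 17 of 25 at 0, dj among them. Trachea and epidermis markers summed to 114.9 to 180.1 TPM with MEK F53S and 59.5 to 103 TPM with wild-type MEK, with 14 of 25 at 0, and fat body markers summed to 189 to 237 TPM with MEK F53S and 162 to 186 TPM with wild-type MEK, with 5 of 13 at 0. Single genes dominated all 4 of these lists, CycB for germline and egg, mia for testis, Cht2 for trachea and epidermis and Cbs for fat body. CycB alone averaged 6185 TPM with MEK F53S and 7612 TPM with wild-type MEK, so the germline sums do not show a drop across that list. Of the 19 tested germline and egg markers, 3 were higher and 5 lower, and with limma 1 was lower. bcd averaged 183 TPM with MEK F53S and 575 TPM with wild-type MEK (adjusted p = 1.65e-05, edgeR). orb went the other way, at 404 TPM with MEK F53S and 138 TPM with wild-type MEK (adjusted p = 0.00336, edgeR). Sums led by 1 gene do not show the lower members of a list, some of which were called. The fat body list had 4 tested genes, 2 higher and 1 lower, with a median log2 fold change of 1.76. Of all tested genes, 12.3% were higher and 12.9% lower. apolpp, a lipoprotein gene that met the limits but was left out by name, averaged 5.91 TPM with MEK F53S and 0.565 TPM with wild-type MEK (log2 fold change 3.10 ± 0.23 SE, adjusted p = 3.63e-05, edgeR). Lsp1gamma, a larval serum protein gene, averaged 1.13 TPM with MEK F53S and 0.00818 TPM with wild-type MEK (adjusted p = 0.00492, edgeR), and the lipid synthesis gene FASN1 was lower, at 5.75 TPM with MEK F53S and 15.2 TPM with wild-type MEK (adjusted p = 0.00407, edgeR). srp, a GATA factor of hemocytes, averaged 7.97 TPM with MEK F53S and 2.41 TPM with wild-type MEK (log2 fold change 1.55 ± 0.39 SE, adjusted p = 0.0177, edgeR), a call lost without MEK F53S replicate 3. It was the only one of 4 tested hemocyte markers to be called. In the trachea and epidermis list trh was lower, at 0.715 TPM with MEK F53S and 3.44 TPM with wild-type MEK (adjusted p = 0.000175, edgeR). The part of such RNA in the levels of the 34 genes was not tested.

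None of the 34 genes is in the list of ERK-responsive genes, and aos, which met the limits, was left out by name. Of 10 such genes tested, 6 were higher and 2 were lower, where 12.3% and 12.9% of all tested genes were, with a median log2 fold change of 1.14 beside 0.05 over all. Mkp3, an ERK phosphatase, had 126, 165 and 136 TPM with MEK F53S and 45.5, 32.6 and 28.9 TPM with wild-type MEK (log2 fold change 1.79 ± 0.16 SE, adjusted p = 0.000114, edgeR). pnt, the ETS factor Pointed, had 28.8, 49.5 and 37.2 TPM with MEK F53S and 3.97, 2.30 and 2.05 TPM with wild-type MEK (log2 fold change 3.53 ± 0.25 SE, adjusted p = 2.69e-05, edgeR). aos, a secreted inhibitor of the EGF receptor, had 17.7, 21.3 and 23.9 TPM with MEK F53S and 1.99, 2.07 and 1.81 TPM with wild-type MEK. The genes called lower were vn, an EGF receptor ligand, and PTP-ER, a phosphatase. vn had 3.29, 0.749 and 1.90 TPM with MEK F53S and 7.06, 2.37 and 1.98 TPM with wild-type MEK (log2 fold change -1.74 ± 0.21 SE, adjusted p = 0.000689, edgeR). Its TPM values thus overlapped between the groups, and wild-type MEK replicate 1 was the highest. PTP-ER averaged 76.4 TPM with MEK F53S and 100.1 TPM with wild-type MEK (log2 fold change -0.47 ± 0.11 SE, adjusted p = 0.0108, edgeR). The call of vn was lost with limma and with the effective length offset, and that of PTP-ER without MEK F53S replicate 1 or 3. aop, an ETS repressor, was not called (adjusted p = 0.875, edgeR).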

How the data were processed

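RNA-seq libraries of unfertilized fly eggs, 3 with MEK F53S and 3 with wild-type MEK, were used as quantified by the authors. Per the submitters' processing notes the reads were quantified with Salmon 0.8.2 and the build was dm6. The labels describe total RNA and directional libraries; no source used here gives the strand setting of the counting, so overlapping genes on opposite strands are named. Per the file headers, each table lists per gene its TPM, its estimated count and a plain and an effective length. As deposited, TPM is scaled for length and to a fixed total, and the estimated counts the authors gave are not normalised and need not be whole. The other deposited columns, the lengths in bases, matched the ratio of counts to TPM within 1% for at least 99.8% of genes with 1 transcript but for at most 8.75% of genes with several, so no length of a gene is printed from them.

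The limits were applied to TPM. Counts were rounded, filtered with filterByExpr (minimum count 10, total 15; 7539 genes), scaled by TMM and tested with edgeR 4.0.16 quasi-likelihood in R 4.3.3, with Benjamini-Hochberg adjustment over all tested genes. Fold changes are log2 ratios of counts, with MEK F53S on top, so they can differ from the ratio of TPM values, which also carry length and another scaling. The procedure was tested on simulated data. The SE of a fold change was taken from the F statistic of edgeR's test, so it includes the spread between libraries. Floors cover counting error only, and PCR copies are no independent molecules. Alternatives used limma 3.58.1 on log2(TPM + 1) or log2(TPM + 0.1), DESeq2 1.42.0, other scalings and filters, other limits and each library left out. Gene symbols (13831 matched, 112 not) and positions came from an annotation of the same assembly. The genes and lists were chosen with earlier results of these data known, and the 9 families after the 34 genes were known. Named were the 25 with the highest MEK F53S mean, those in a list or family, those nearest the limits and those adjoining another, then up to 4 genes of a list with the smallest p, neighbours, and genes that a result turns on; CG42324 was named after its values were seen. Promoter motifs and sequences were not analysed here. Replicates of a group differed beyond sampling noise, so each library counted as 1 sample.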

Additional observations from a re-analysis of the deposited data

How the results depend on the processing

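CG5381, CG16815, CG32196 and Orct2 lost their call in 1 or more alternative fits. The limits used the same contrast, so the calls that the other genes of the set kept say nothing about their stability. The 34 genes became 20 with a wild-type MEK limit of 1 TPM and 11 with a MEK F53S limit of 8 TPM, as stricter limits must, 25 with a separation of 4 times and 45 with none. Rescaling TPM by TMM factors, an alternative added after seeing the data, left 28, all among the 34, and the planned scaling per deposited effective length gave 28, of which 18 were among the 34; this one carries the fault of the length columns, as does the fit with that length as an offset. A further alternative added after seeing the data, a TPM above 0 in every MEK F53S library, gave 33. Leaving out each library in turn gave 35 to 39 genes.

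Over all genes, 930 were higher and 970 lower. Leaving out each library in turn gave 424 to 1304 higher and 506 to 1310 lower, with 512 and 495 higher without MEK F53S replicates 1 and 3 and 424 and 474 higher without wild-type MEK replicates 2 and 3. With limma, 572 were lower on log2(TPM + 1) and 562 on log2(TPM + 0.1), so 64.7% and 65.0% of calls were higher, against 48.9% in edgeR; the cause was not tested. Replicate numbers did not pair the samples (correlations of deviations -0.138, -0.135 and 0.193); with the replicate number as a block, 744 genes were higher and 742 lower. Depth limits genes with few counts: the floor of 3 counts was 0.0615 to 0.0806 CPM.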

Other observations

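With the groups exchanged, the same 3 limits were met by 17 genes, 3 of them histone or heat shock genes. Among these, CG7720 averaged 0.820 TPM with MEK F53S and 20.0 TPM with wild-type MEK, and inaF-A averaged 0.317 TPM with MEK F53S and 19.5 TPM with wild-type MEK. MtnA, a metallothionein, averaged 0.132 TPM with MEK F53S and 9.36 TPM with wild-type MEK, and Xrp1, a bZIP factor, averaged 0.691 TPM with MEK F53S and 5.15 TPM with wild-type MEK. In the direction of the 34 genes, 51 genes met the limits, 0.366% of all genes of the tables.

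At a mean of 4 TPM or more in one group, 7 genes had 0 counts in every wild-type MEK library and 1 gene, Hsp70Aa, had 0 counts in every MEK F53S library. Of the 7, CG13713, CG16815, CG16813 and CG43659 belong to the 34, and Nepl19, at 23.7 TPM with MEK F53S, His2B:CG17949, at 20.5 TPM, and Hsp70Bb, at 5.45 TPM, were left out by name. The histone and heat shock genes share reads with near-identical copies, so their values are uncertain. These genes were named after their values were seen.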
